A study of Rattus norvegicus with 90 samples.

Results

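The liver response to a single low dose of thioacetamide was measured 24 h after injection. Thioacetamide harms the liver only after oxidation inside the hepatocyte, where cytochromes P450 carry out much of this step. Its injury is known to begin around the central vein of the lobule, where these enzymes are most abundant. Hepatocytes devote a large part of their messenger RNA to a small number of secreted proteins and metabolic enzymes, so a change in those few transcripts alters the make-up of a whole liver library. Loss of liver-specific transcripts and gain of transcripts that other organs also use are common features of injured liver.

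The members were chosen by their labels alone: liver libraries taken at 24 h from Sprague-Dawley rats given thioacetamide at 25 mg/kg (low dose) or saline at 3 ml/kg (vehicle). They numbered 9 of the 90 samples of the series, 5 low-dose and 4 vehicle libraries, each from a separate rat. The rats were males, bought at 10 weeks of age and fitted with a jugular catheter, the injections were intraperitoneal, and rats of the 24 h groups had food at first and none for the last 8 h. Other groups tested for comparison are 5 livers at 24 h after 100 mg/kg (high dose) and 5 low-dose and 5 vehicle livers at 8 h. In kidney they are 5 low-dose and 5 vehicle samples at 24 h. The 5 high-dose livers at 8 h are used where levels are described library by library. The 5 vehicle hearts at 24 h serve, with the vehicle kidneys, to compare transcript levels between organs.

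A library labelled vehicle at 24 h, MS-1, was left out. Of the 21976 transcripts with a count in MS-1 or in the low-dose 8 h library MS-9, 99.9% had estimated counts equal within 0.5, so the pair hold nearly the same data. Over the 7960 transcripts whose mean reached 10 CPM, a count scaled to the total of its library, the median absolute log2 difference between MS-1 and each other vehicle library at 24 h was 0.485 to 0.552. Between libraries of the same group it was 0.117 to 0.277. Which of the 2 labels is right cannot be told from the labels, and MS-9 was kept in its own group. The leading counts are given also with MS-1 as a vehicle sample. Those fits place among the vehicle samples data that nearly equal a library labelled low dose at 8 h.

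The files list 40071 transcripts, by Ensembl transcript identifier and without gene names, and 16754 of them passed the filter on low counts. The measurements below are therefore of transcripts, and what each encodes is not given here. Totals over transcripts ranged from 18948828 to 24347209 counts in the vehicle libraries and from 18622390 to 30880608 in the low-dose libraries. The correlation of log2 levels with the mean vehicle liver profile at 8 h was 0.965 to 0.986 in the 9 libraries, against 0.793 to 0.838 with kidney and 0.701 to 0.755 with heart, which is a description of the libraries over the same transcripts and checks the labelled organ. Levels are given in CPM after scaling by trimmed mean of M-values (TMM), which sets the bulk of transcripts level between libraries.

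The make-up of the low-dose libraries differed from that of the vehicle libraries. The 50 most abundant transcripts of each library took 41.5% of transcript counts in MS-4, 43.3% in MS-19, 45.3% in MS-20 and 43.5% in MS-21, the 4 vehicle libraries. In the low-dose libraries the share was 36.7% in MS-2, 37% in MS-5, 37.2% in MS-7, 37.3% in MS-22 and 38.2% in MS-23. All 5 low-dose libraries lay below all 4 vehicle libraries, with means of 37.3% ± 0.563 (SD, n = 5) and 43.4% ± 1.55 (SD, n = 4; two-sided exact permutation p = 0.00794, the smallest the design allows; 0.0159 adjusted over 4 library measures). More transcripts had a count above 0 after the low dose, 22320 to 23317 against 21108 to 22348, although the groups overlapped in total counts (exact permutation p = 0.0159, adjusted 0.0212, for transcripts detected; exact permutation p = 0.444 for totals).

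A further library measure moved with the dose. The files also list genomic intervals, which are not members, and these took 7.64% of all counts in MS-4, 20.6% in MS-19, 8.27% in MS-20 and 25.0% in MS-21. In the low-dose libraries they took 5.1% to 7.02%, below each of these 4 vehicle libraries (exact permutation p = 0.00794, adjusted 0.0159). The difference of the means, low dose minus vehicle, was −9.46 percentage points, and it was −2.04 without MS-19 and MS-21. MS-1 had 5.23%, within the low-dose range, and with it the exact permutation p was 0.0476. The part of this share in the results was not tested, and the leading counts are given also without MS-19 and MS-21 and with the share as a covariate.

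**Figure D1:**
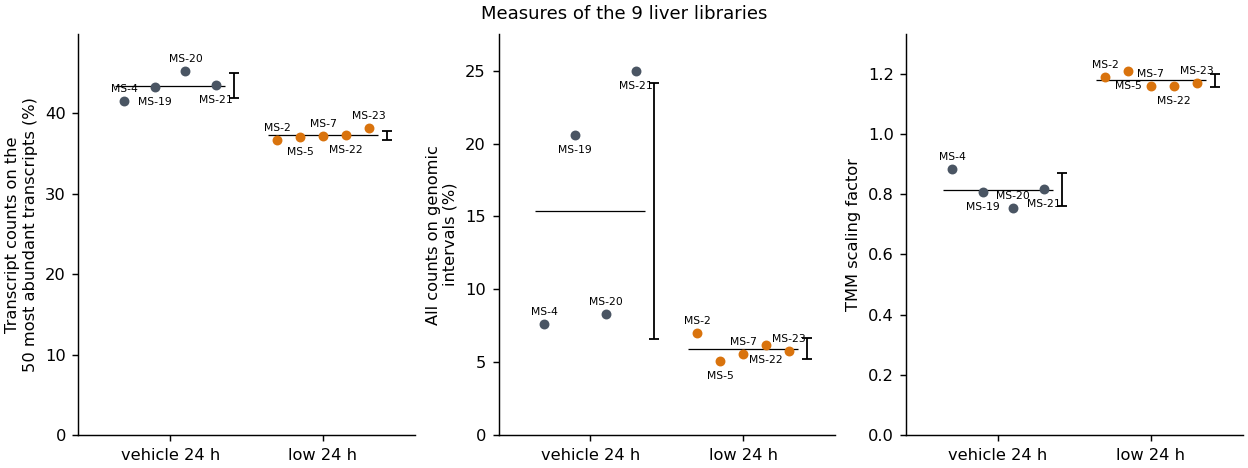
Share of transcript counts on the 50 most abundant transcripts (%), share of all counts on genomic intervals (%) and TMM scaling factor in the 4 vehicle and 5 low-dose liver libraries at 24 h. Each point is a library, the line is the group mean and the bar its SD. The 5 low-dose libraries lie below the vehicle libraries in the first 2 measures and above them in the scaling factor, 1.16 to 1.21 against 0.754 to 0.884.

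Under edgeR's quasi-likelihood test, 1515 of the 16754 tested transcripts (9.04%) were differentially expressed, with a Benjamini-Hochberg adjusted p up to 0.01 and a change of 0.60 or more in either direction on the natural-log scale (0.866 on the log2 scale). Of these, 820 rose (4.89% of those tested) and 695 fell (4.15%). The counts are of identifiers, some of which share the same values. In whole liver, fewer cells of a type and less RNA per cell cannot be told apart. The fit without MS-19 and MS-21 called 789 transcripts, 343 higher and 446 lower, and the fit with the interval share as a covariate called 713, 295 higher and 418 lower. In both of these fits all 820 and all 695 kept their direction, which their choice on the same libraries favours. Medians over all of them were 1.5 and −1.21 without the pair of libraries and 1.52 and −1.18 with the covariate. Of the 820 and the 695, 287 and 391 were still called without the pair, and 235 and 365 with the covariate. With MS-1 kept as a vehicle sample, 315 transcripts were called, 158 higher and 157 lower, and 26 of the 814 risen transcripts tested in that fit had the opposite sign. Of 51 transcripts named by rules on size, level and p, 24 were then no longer called, among them 10 of the 12 largest rises and 2 of the 12 largest falls. Without MS-19 and MS-21 10 of the 51 were lost, and with the covariate 13.

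The changes are relative to the scaling. With library totals alone, the median log2 fold change of all tested transcripts was 0.55 in place of 0.02, and 3481 transcripts were called, 3265 higher and 216 lower. The 820 and the 695 all kept their sign in that fit, with medians of 2.01 and −0.69, and 216 of the 695 were still called. A statement below that a transcript fell therefore means that it fell against the bulk of liver transcripts.

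The risen transcripts changed by more, at lower levels, than the fallen ones. Their median log2 fold change was 1.48, with quartiles of 1.12 and 2.08, and 227 of the 820 rose at least 4-fold and 82 at least 8-fold. The fallen transcripts had a median of −1.22, with quartiles of −1.66 and −1.02, and 117 of the 695 fell at least 4-fold and 36 at least 8-fold. The median level over the 9 libraries was 4.65 CPM for the risen transcripts and 53 CPM for the fallen ones, against 8.63 CPM for all tested. Every low-dose library lay above every vehicle library in 815 of the 820, and below in 674 of the 695. Over all tested transcripts, 15.1% were so separated upward and 13.5% downward.

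Falls were concentrated among abundant transcripts. Of 6823 transcripts with a mean of 1 to 10 CPM, 521 rose and 137 fell. Of 6587 at 10 to 100 CPM, 195 rose and 266 fell. Of 1126 at 100 to 1000 CPM, 15 rose and 232 fell (20.6%), and of 116 at 1000 CPM or more, 1 rose and 49 fell (42.2%). The median log2 fold change was 0.14, −0.04, −0.40 and −0.73 in these 4 classes in turn. Among the 50 most abundant transcripts, 0 rose and 19 fell by edgeR's test, and 46 of the 50 had a fold change below 0, with a median of −0.70 relative to the bulk.

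**Figure D2:**
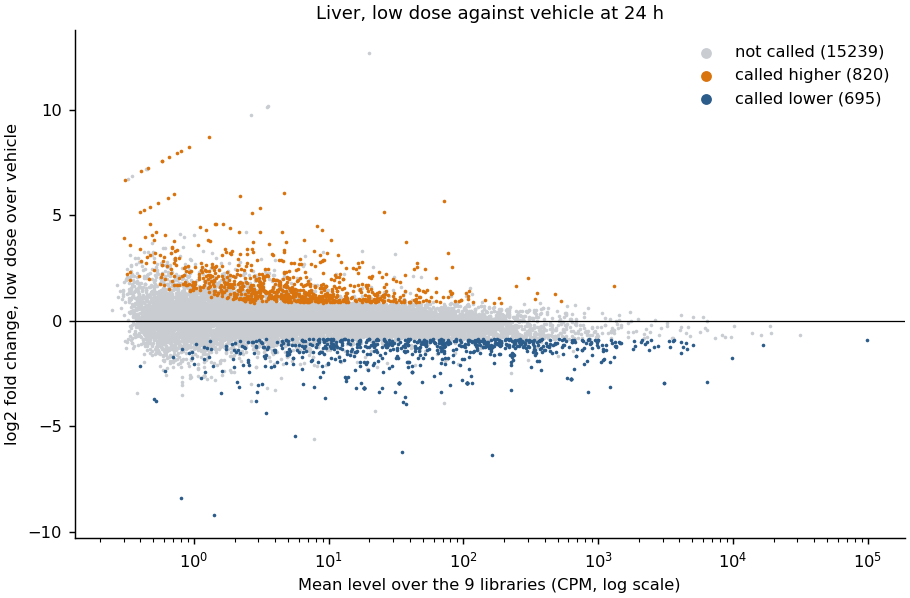
log2 fold change of the low dose over vehicle at 24 h against the mean level over the 9 liver libraries (CPM, log scale), with a point for each of the 16754 tested transcripts. Orange points were called higher (820) and blue points lower (695); blue points reach the right end of the axis, while orange points gather at low levels. Points on a rising diagonal at the upper left have no vehicle counts, and their fitted fold changes depend on the prior count of the fit.

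The largest fall among transcripts that passed the naming rule, which asks for at least 2 CPM and no overlap of the groups, was that of ENSRNOT00000010639, of 1546 bases. Its level was 417, 348, 409 and 270 CPM in the vehicle libraries MS-4, MS-19, MS-20 and MS-21. In the low-dose libraries MS-2, MS-5, MS-7, MS-22 and MS-23 it was 3.82, 5.87, 2.21, 6.23 and 4.14 CPM. The groups were far apart and no library was intermediate, with a log2 fold change of −6.35 (SE 0.301, edgeR adjusted p = 2.32e-05), an 81.4-fold fall. On the TPM scale, which divides each count by the length of its transcript and sets every library to the same total, its mean in vehicle-treated rats at 24 h was 213 in liver, 0.14 in kidney and 0.0685 in heart, so it was nearly confined to liver among the 3 organs. At the high dose it was at 2.17 to 7.41 CPM, a log2 fold change of −6.07 against the same vehicle libraries, and the 2 doses did not differ detectably (0.31 ± 0.335, log2 difference high minus low with SE; edgeR adjusted p = 0.515). At 8 h it was 32.6 to 106.3 CPM after the low dose and 110 to 249 CPM after vehicle, a log2 fold change of −1.04 that was not called (edgeR adjusted p = 0.0282).

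ENSRNOT00000015316, of 1108 bases, had the next largest fall. Its level was 14.5 CPM in MS-4, 130 in MS-19, 84.3 in MS-20 and 80.8 in MS-21, and in the low-dose libraries it was 0.78, 1.23, 0.394, 1.68 and 1.06 CPM. The vehicle libraries varied widely and MS-4 was the lowest, but every low-dose library lay below all of them (log2 fold change −6.21, SE 0.621, edgeR adjusted p = 0.000152). This transcript was not particular to liver: its mean in vehicle-treated rats at 24 h was 60.5 TPM in liver and 115 TPM in kidney. Its kidney log2 fold change at the same dose and time was −1.88 (edgeR adjusted p = 0.0875), which was not called, and the effects in the 2 organs differed (interaction −4.32 on the log2 scale, edgeR adjusted p = 0.00202). Of the other 10 largest falls, fold changes ran from −3.37 to −5.48, and the mean vehicle level from 5.89 to 136 CPM.

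The most abundant transcript of the whole table was among those that fell. This transcript, of 2069 bases, was at 118239, 138653, 155439 and 118321 CPM in the vehicle libraries and at 77331, 66006, 70412, 81267 and 61830 CPM in the low-dose libraries. No low-dose library reached the lowest vehicle library, and the fall was 1.87-fold (log2 fold change −0.91, SE 0.134, edgeR adjusted p = 0.000995). This value is close to the limit of 0.866: without MS-20 it was −0.83 and without MS-23 −0.85, so the call was lost. With library totals alone it was −0.37, and with MS-1 −0.77 (edgeR adjusted p = 0.0272). With the interval share as a covariate its adjusted p was 0.0106 by edgeR, also not called. The next most abundant of the fallen transcripts, of 1184 bases, had the smallest SE of the 6, at 22188 to 25285 CPM after vehicle and 10100 to 11835 CPM after the low dose (log2 fold change −1.13, SE 0.0946). Another of the 6 most abundant falls, of 798 bases, was at 3351, 19236, 5740 and 20783 CPM in the vehicle libraries and at 1173 to 2228 CPM in the low-dose libraries. It was highest in MS-19 and MS-21, the libraries with the highest share of counts on genomic intervals, and without this pair its log2 fold change was −1.48 in place of −2.92 and was not called (edgeR adjusted p = 0.0106).

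The largest rises started from near 0. ENSRNOT00000014788, of 2715 bases, had 0 counts in 3 vehicle libraries and 0.46 CPM in MS-20, and it was at 10.4, 23.9, 1.54, 2.96 and 2.38 CPM in MS-2, MS-5, MS-7, MS-22 and MS-23. The groups did not overlap, but the low-dose libraries spread over more than 10-fold, with MS-5 highest (log2 fold change 6.09, SE 1.30, edgeR adjusted p = 0.00618). Leaving out each library in turn moved its fitted log2 fold change between 5.17 and 10.61, the latter where no vehicle count was left. It was no longer called without any 1 of MS-2, MS-4, MS-19, MS-20 or MS-21 (edgeR adjusted p = 0.0135 to 0.0212), and with MS-1 its log2 fold change was 0.89 (edgeR adjusted p = 0.759). At the high dose it was at 0 to 12.5 CPM and was not called against vehicle (edgeR adjusted p = 0.0305). At 8 h it was at 0 to 4.31 CPM after vehicle and 0.495 to 21.7 CPM after the low dose, also not called (edgeR adjusted p = 0.159). The 8 h vehicle library MS-10, at 4.31 CPM, lay above MS-7, MS-22 and MS-23.

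ENSRNOT00000080410, of 2497 bases, was detected in MS-19 alone of the vehicle libraries, at 0.245 CPM. In the low-dose libraries it was at 2.54, 6.42, 2.72, 4.29 and 3.47 CPM (log2 fold change 5.93, SE 0.793, edgeR adjusted p = 0.00061). Leaving out each library in turn gave 5.49 to 9.54, the latter without MS-19, where no vehicle count was left. The transcript was not called with the interval share as a covariate (edgeR adjusted p = 0.011) or with MS-1 (log2 fold change 1.64, edgeR adjusted p = 0.442). It was higher again at the high dose, at 9.24 to 17.5 CPM, and the difference between the doses was 1.82 on the log2 scale (SE 0.267, edgeR adjusted p = 0.00149). At 8 h it was at 1.97 to 5.97 CPM after the low dose and at 0 to 0.0473 CPM after vehicle.

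The third largest rise was the most abundant of the 12. This transcript, of 3889 bases, was at 1.52, 4.84, 0.633 and 2.72 CPM in the vehicle libraries and at 138, 138, 123, 89.9 and 153 CPM in the low-dose libraries, a 52.1-fold rise (log2 fold change 5.70, SE 0.458, edgeR adjusted p = 6.16e-05). All 5 low-dose libraries were close to each other and more than 10-fold above the highest vehicle library. With MS-1 as a vehicle sample its log2 fold change was 1.49 (SE 1.29, edgeR adjusted p = 0.518). After the low dose at 8 h it was already at 45.2 to 217 CPM, and at the high dose at 24 h it was at 208 to 380 CPM. Over all tested transcripts, 10 had 0 counts in every vehicle library and counts in every low-dose library, with a mean of at most 2.32 CPM, and 2 showed the reverse.

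The most abundant of the risen transcripts, of 1761 bases, was at 706.5, 847.2, 391.5 and 421.7 CPM in the vehicle libraries and at 2167, 1349, 2065, 1865 and 1917 CPM in the low-dose libraries. The groups did not overlap, and the rise was 3.13-fold (log2 fold change 1.65, SE 0.251, edgeR adjusted p = 0.00116), though it was not called with the interval share as a covariate (1.71, edgeR adjusted p = 0.017). It was lower at the high dose, at 576 to 1210 CPM (log2 difference high minus low −1.07, SE 0.227, edgeR adjusted p = 0.00573). At 8 h its range after vehicle was wide, 157 to 1261 CPM, and it was at 670 to 1055 CPM after the low dose, which was not called (edgeR adjusted p = 0.451). The sixth most abundant rise, of 1259 bases, was at 74.7, 201, 82.9 and 82.9 CPM after vehicle, at 471, 356, 369, 673 and 388 CPM after the low dose and at 95.7, 52.2, 133, 145 and 102.8 CPM after the high dose. It was raised 4.05-fold by the low dose (log2 fold change 2.02, SE 0.339, edgeR adjusted p = 0.00185), and the high-dose libraries lay below all low-dose libraries (log2 difference −2.12, SE 0.276, edgeR adjusted p = 0.00111).

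**Figure D3:**
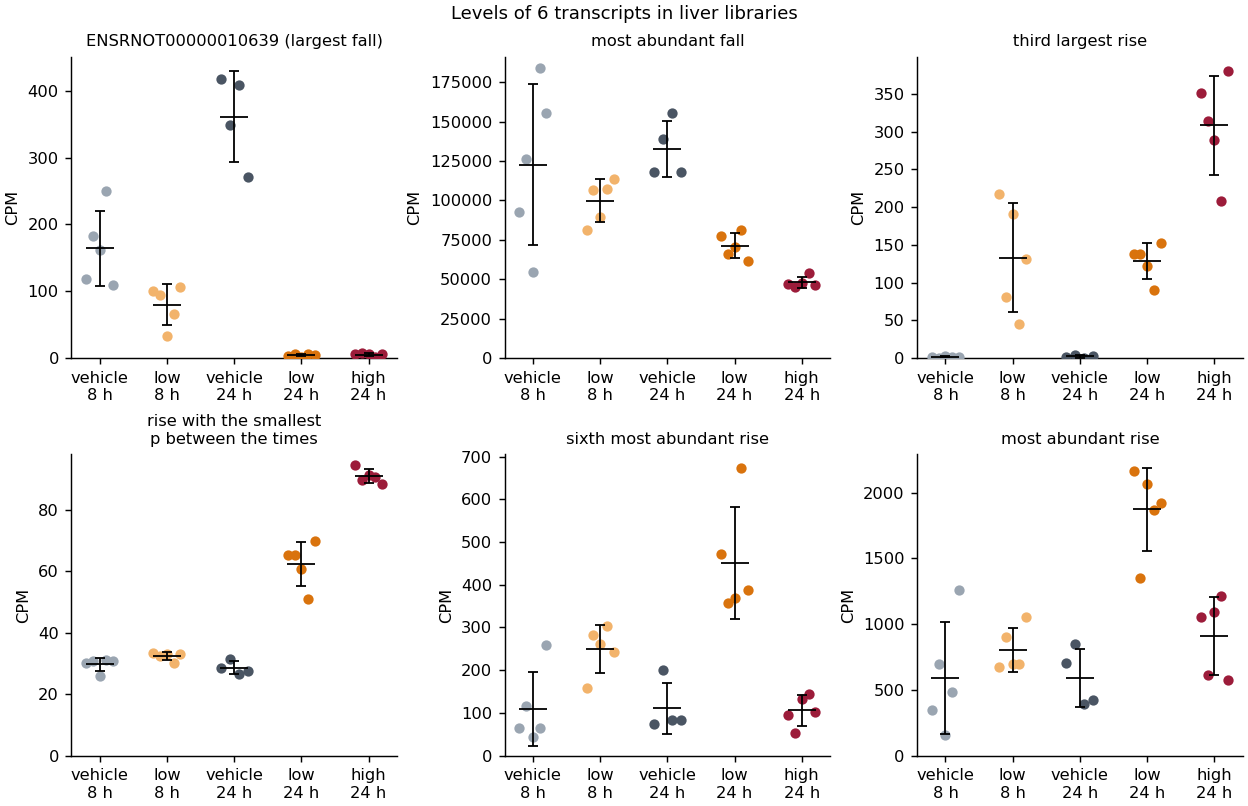
Levels (CPM) of 6 transcripts in liver libraries of the vehicle and low-dose groups at 8 h and the vehicle, low-dose and high-dose groups at 24 h; each point is a library, and the bar gives the mean ± SD. ENSRNOT00000010639 is near 0 at both doses at 24 h, the rise with the smallest p between the times is at 51.1 to 70 CPM after the low dose at 24 h and at 30.1 to 33.4 CPM at 8 h, and the 2 transcripts at the lower right are higher after the low than after the high dose.

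Transcripts that marked the liver were lowered far more often than others. On the TPM scale of vehicle-treated rats at 24 h, 634 of the tested transcripts were at least 10 times higher in liver than in both kidney and heart. Of these, 201 fell (31.7%) and 8 rose (1.26%), with a median log2 fold change of −0.79. Of the other 16120, 494 fell (3.06%) and 812 rose (5.04%), with a median of 0.03. In the opposite direction, 227 of the 820 risen transcripts (27.7%) were at least 10 times higher in kidney or heart than in vehicle-treated liver, against 26 of the 695 fallen ones (3.74%) and 11.7% of all tested. The vehicle livers enter both the class and the fold change, so these are counts and not tests.

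The excess of falls among liver transcripts was present at every level. At 10 to 100 CPM, 29.1% of 175 liver transcripts fell against 3.35% of 6412 others. At 100 to 1000 CPM the shares were 44.5% of 200 and 15.4% of 926, and at 1000 CPM or more 50% of 78 and 26.3% of 38. The median log2 fold change of the liver transcripts was −0.69, −0.86 and −0.86 in these classes, and that of the others was −0.03, −0.32 and −0.43.

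**Figure D4:**
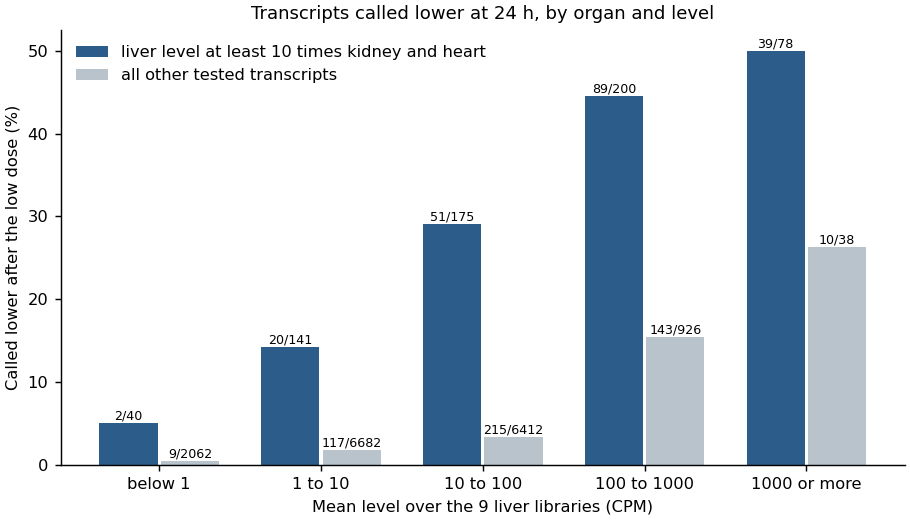
Percent of transcripts called lower after the low dose at 24 h, by mean level over the 9 liver libraries (CPM), for transcripts at least 10 times higher in liver than in kidney and heart and for all others; each bar carries the number called lower over the number tested. The share is higher for the liver transcripts at each level, and it rises with the level in both classes, to 50% and 26.3%.

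The same transcripts were then followed at 8 h, in other rats. Of the 820 risen transcripts, 767 were tested at 8 h, where 256 were also called higher (33.4%) and 0 were called lower. Of the 695 fallen ones, 692 were tested and 224 were called lower (32.4%), with 0 called higher. Of all tested transcripts, 9.88% were called at 8 h, 5.78% higher and 4.1% lower, by the same edgeR test and limits. The median log2 fold changes at 8 h were 0.79 and −0.79, against 1.43 and −1.22 for the same transcripts at 24 h. The members were selected on the 24 h samples, which favours the larger values at 24 h.

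An interaction of dose and time, fitted over both times, tested how far the effects differed, and 184 of 17931 transcripts passed (1.03%, with 0.535% higher and 0.491% lower; edgeR adjusted p up to 0.01). Of the 820 risen transcripts, 47 rose further at 24 h than at 8 h and 1 less. Of the 695 fallen ones, 20 fell further at 24 h and 0 less. The 47 had a median log2 fold change of 1.57 at 24 h and −0.12 at 8 h, and the 20 had −1.94 and −0.25. This count of 184 depended on single libraries: it was 79 without MS-19, 342 without MS-5, and between 84 and 116 without any 1 of MS-2, MS-7, MS-22, MS-23, MS-21, MS-9 or the 8 h libraries MS-13 and MS-18. It was 14 without both MS-19 and MS-21 and 122 with MS-1 added. Rats of the 2 times also differed in the hour of injection, as both groups were sampled at the same time of day, and in feeding; time after injection cannot be told apart from these.

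The rise with the smallest interaction p was that of a transcript of 1294 bases. It was at 28.6, 31.4, 26.6 and 27.5 CPM in the vehicle libraries at 24 h and at 65.2, 65.1, 60.9, 51.1 and 70 CPM in the low-dose libraries (log2 fold change 1.12, SE 0.10, edgeR adjusted p = 9.5e-05). At 8 h it was at 26 to 31 CPM after vehicle and 30.1 to 33.4 CPM after the low dose, a log2 fold change of 0.12 (edgeR adjusted p = 0.256). The effects differed by 1.03 (SE 0.122, edgeR adjusted p = 0.000337), and the level was higher again at the high dose, at 88.4 to 94.6 CPM. Another, of 3052 bases, was at 0.978 to 2.68 CPM after vehicle and 10.8 to 19.2 CPM after the low dose at 24 h. At 8 h it was at 3.23 to 18.3 CPM after vehicle and 3.27 to 4.66 CPM after the low dose (interaction 4.21, SE 0.57, edgeR adjusted p = 0.00179), so its vehicle level also differed between the times.

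Falls of the later time included ENSRNOT00000010639, whose interaction was −5.27 (SE 0.47, edgeR adjusted p = 2.3e-05). A transcript of 4019 bases was at 129, 130, 183 and 179 CPM in the vehicle libraries and at 14.1, 14.3, 24.0, 24.5 and 16.4 CPM in the low-dose libraries at 24 h (log2 fold change −3.07, SE 0.214). At 8 h its ranges overlapped, 54.8 to 104.6 CPM after vehicle and 40.6 to 105.4 CPM after the low dose, and the interaction was −2.67 (SE 0.372, edgeR adjusted p = 0.00219). A transcript of 958 bases was at 732 to 1081 CPM after vehicle and 196.5 to 337.9 CPM after the low dose at 24 h. Its 8 h log2 fold change was 0.10 (edgeR adjusted p = 0.679; interaction −1.66, SE 0.254, adjusted p = 0.00321).

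The high dose at 24 h was set beside the low dose for the same transcripts. Both comparisons use the same 4 vehicle libraries, so their fold changes are not independent, and 26.8% of all tested transcripts were called at the high dose, 13.2% higher and 13.6% lower. Of the 817 risen transcripts tested there, 766 were called higher, with a median log2 fold change of 1.98. Of the 693 fallen ones, 661 were called lower, with a median of −2.19. With MS-1 these counts were 511 and 601.

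The doses were also compared directly, without the vehicle libraries, where 6.6% of 17101 transcripts differed, 2.76% higher and 3.84% lower at the high dose. Of the 820 risen transcripts, 164 were higher still at the high dose and 3 were lower, and the median log2 difference was 0.54. Of the 678 fallen ones tested, 280 were lower still and 1 was higher, with a median of −0.86. The low-dose libraries chose the transcripts and enter this comparison too. The 3 that were lower at the high dose, which include the most abundant and the sixth most abundant rise described above, had a median log2 fold change over vehicle of 1.87 at the low dose and 0.17 at the high dose. The fallen transcript with the smallest p between the doses, of 1970 bases, stepped from 190 to 243 CPM after vehicle to 94.2 to 114 CPM after the low dose and 36.8 to 49.6 CPM after the high dose (high minus low −1.31, SE 0.0982, edgeR adjusted p = 0.000304). The count of 1128 transcripts that differed between the doses was 711 without MS-2, 629 without MS-7, 688 without the high-dose library MS-6 and 653 without the high-dose library MS-26. The 164 became 94 without MS-2, 87 without MS-7, 95 without MS-6 and 92 without MS-26, and without MS-23 it fell to 12.9% of the 820, while the 280 ranged from 190 to 313 with 1 library left out.

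Levels of the called transcripts were also described library by library. The median log2 difference from the mean of the vehicle libraries, over the risen transcripts, was 1.19 in MS-2, 1.24 in MS-5, 1.1 in MS-7, 1.33 in MS-22 and 1.25 in MS-23. Over the fallen transcripts it was −1.18, −1.35, −1.06, −1.08 and −1.20 in the same order. These medians are fixed in sign by the choice of transcripts. MS-5 had the lowest level of the 5 for 291 of the fallen transcripts, and MS-22 had the highest for 299 of the risen ones. MS-22 also had the highest level for 233 of the fallen transcripts, and MS-5 the lowest for 176 of the risen ones. The order of the libraries thus differed between the 2 sets and among transcripts. The vehicle livers at 8 h did not enter the choice, but the 24 h vehicle mean from which all differences are taken did. This favours a shift of other groups in the direction of each set. In the vehicle livers at 8 h the medians were 0.0852 to 0.408 and −0.369 to −0.0504. The low-dose livers at 8 h lay beyond them, at 0.818 to 1.04 and −1.08 to −0.843. MS-9, whose data MS-1 nearly repeats, was among these at 1.0 and −1.07. The high-dose livers at 8 h were at 1.04 to 1.34 and −1.11 to −0.864, which overlaps the low-dose livers at 24 h. The high-dose livers at 24 h were farthest from vehicle, at 1.41 to 1.93 and −2.31 to −1.74.

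**Figure D5:**
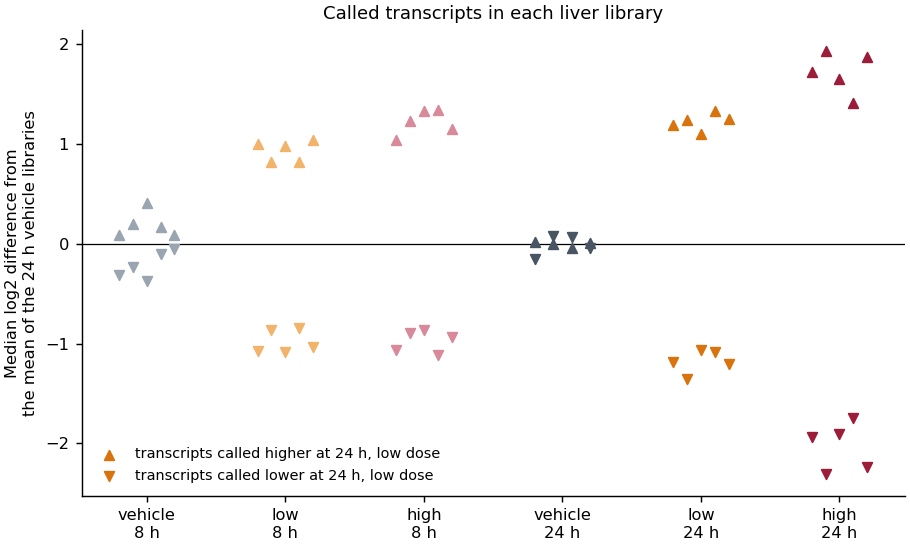
Median log2 difference from the mean of the 24 h vehicle livers, over the transcripts called higher (upward triangles) and lower (downward triangles) after the low dose at 24 h, in each liver library of 6 groups. Low-dose libraries at 24 h sit at 1.1 to 1.33 and −1.35 to −1.06; those of the vehicle group at 8 h stay within 0.408 and −0.369 of 0.

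In kidneys of the same rats few of these transcripts were called. Of the 774 risen transcripts tested in kidney, 5 were called higher and 0 lower, and of the 595 fallen ones tested 0 were called, by edgeR. Over all 18559 transcripts, 11 were called (0.0593%, with 0.0377% higher and 0.0216% lower), 2126 had an unadjusted p under 0.05, and DESeq2 called 155. The median kidney log2 fold changes of the 2 sets were 0.21 and −0.19. The kidney low-dose library MS-37 had 2.94% of its transcript counts on the 634 liver transcripts, against 0.38% to 0.573% in the other 9 kidney libraries, and without it 0 transcripts were called by edgeR (1600 at an unadjusted p under 0.05). Leaving out MS-105 gave 37, and leaving out any other kidney library gave 0 to 4. The abundant fallen transcript of 2069 bases had a kidney log2 fold change of 3.74 with an SE of 1.82. It took 0.421% of transcript counts in MS-37 and 0.0002% to 0.0243% in the other 9 kidney libraries.

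The effect in liver differed from that in kidney for 502 of 20261 transcripts (2.48%, with 1.55% higher and 0.928% lower in liver; interaction, edgeR adjusted p up to 0.01). Of the 820 risen transcripts, 260 rose more in liver and 1 less. Of the 695 fallen ones, 132 fell more in liver and 0 less. The transcripts were chosen on the same livers, which favours the larger effect in liver, so this split is a description. Organs of the same rats entered this fit as independent samples. The 1 exception was the most abundant rise, with a log2 fold change of 1.65 in liver and 4.84 in kidney (SE 0.52, edgeR adjusted p = 0.00564), where the difference was −3.17 (SE 0.58, edgeR adjusted p = 0.00319). Its call in kidney was not kept without MS-37, where 0 transcripts were called in kidney by edgeR. Without MS-19 and MS-21, 259 transcripts passed the test between the organs, and without MS-20, 333.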

How the data were processed

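The authors sequenced poly-A-enriched stranded libraries as 75-base read pairs and quantified them with kallisto 0.42.2 against the Rnor_6.0 Ensembl transcriptome; version and build are from the labels and the study's methods. The deposited files hold an estimated count and a TPM value for each target in each library. Estimated counts of transcripts were rounded to whole numbers and tested with edgeR 4.0.16 (R 4.3.3; default filter on low counts, TMM scaling, quasi-likelihood test, Benjamini-Hochberg adjustment over all transcripts tested). The SE printed with an edgeR log2 value is that value's size divided by the square root of the F statistic of its test. It is an approximation and is not given by edgeR itself. DESeq2 1.42.0 and limma 3.58.1 served as alternatives. Deposited TPM values were rescaled over transcripts for levels per length. The limma fits used the deposited TPM values without this rescaling, so their totals include the genomic intervals.

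Transcripts are not paired with genes here, so gene lists, cell type markers and sequences were not used, and at most 2 identifiers per direction are printed. Named transcripts were called, had a mean of at least 2 CPM and no overlap between groups (613 higher, 644 lower): the 12 largest changes, the 6 most abundant, and the 4 with the smallest p between times and between doses, in each direction. Samples, comparisons and the rule for names were chosen with earlier results of these data known. Exact permutation tests were two-sided. Replicates are separate rats. Estimated counts of transcripts that share sequence can be split wrongly between them.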

Additional observations from a re-analysis of the deposited data

Results flagged for a closer look

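Within groups, 10 of 112 sets of values tested by Dixon's criterion had a library standing apart. The criterion is set to flag about 1 in 20 sets by chance, but a set with 0 in all libraries but 1 is always flagged. The vehicle sets of ENSRNOT00000014788, ENSRNOT00000080410 and the fifth largest rise were of this kind. The count of 10 therefore cannot be set against 1 in 20. Among the library measures, MS-21 had 22348 transcripts with a count, above the other vehicle livers, and the kidney low-dose library MS-37 had 2.94% of transcript counts on liver transcripts.

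Of the 8 flags on named transcripts, 4 were in vehicle livers. ENSRNOT00000014788 was detected in MS-20 alone of them, at 0.46 CPM, and ENSRNOT00000080410 in MS-19 alone, at 0.245 CPM. The fifth largest rise was detected in MS-19 alone, at 0.551 CPM, and the sixth most abundant rise was at 201 CPM in MS-19 against 74.7 to 82.9 CPM in the others. In the low-dose livers, MS-5 stood apart for 3 transcripts: it was highest at 28.9 CPM for the seventh largest rise and at 7.78 CPM for the rise with the smallest p between the doses, and lowest at 196.5 CPM for the fall of 958 bases. MS-23 was highest at 0.992 CPM for the twelfth largest fall.

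The low-dose effect differed between 24 h and 8 h for 184 transcripts and between liver and kidney for 502, by the interaction tests of the report.

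Genomic intervals, which the comparisons did not use, also changed. In a fit of all targets, 7366 of 25095 intervals were tested, and 397 were called lower and 67 higher (6.3%). Of these, 4 are described with their coordinates among the other observations.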

How the results depend on the processing

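The count of 1515 stayed within 1.5 times under DESeq2, relative log expression factors, other filters, all targets in the fit, all 14 livers at 24 h in 1 fit, a term for library number and the leaving out of any 1 library (1132 to 1629). It was 315 with MS-1, 789 without MS-19 and MS-21, 713 with the interval share as a covariate, 2868 with no limit on the fold change (1296 higher, 1572 lower), 3481 with no scaling factors, 4258 by limma on log2(TPM + 1) and 6780 on log2(TPM + 0.1). The 2 limma fits rest on TPM values whose totals include the genomic intervals. The last 3 keep the shift in library make-up, and 93.8%, 97.2% and 98% of their calls were higher, against 43.5% without MS-19 and MS-21 and 41.4% with the covariate. For the others the cause was not tested. The MS-19 and covariate alternatives and the fit without scaling factors were chosen after seeing the data.

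The count between the times was 889 by DESeq2, 112 without MS-9, 122 with MS-1, 14 without MS-19 and MS-21 and 79 to 342 with 1 library left out. Between the doses 1 library left out gave 629 to 1455. Between the organs the count was 1233 by DESeq2, 259 without MS-19 and MS-21 and 333 to 584 with 1 library left out. In kidney it was 155 by DESeq2 and 0 to 37 with 1 library left out. At the high dose it was 2729 with MS-1 and 4598 without it. With 1 library left out, the difference in transcripts detected was 1193 to 1620, with an exact permutation p of 0.0571 without MS-2, MS-7, MS-22 or MS-23. No named transcript changed direction under any alternative run. The naming rule asked for no overlap of the groups, which favours this outcome, and with MS-1 24 of the 51 were no longer called.

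No paired analysis was possible because the labels give no replicate number and do not say which kidney and liver came from the same rat. Sums per gene were not run, as transcripts are not paired with genes here. Levels under about 1 CPM rest on few counts in each library.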

Other observations

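Genomic intervals were listed beside the transcripts, with coordinates that name no gene, on Rnor_6.0. Those with the most counts were highest in MS-19 and MS-21. The interval on chromosome 14 from 46646819 to 46649470 took 1.29%, 5.33%, 1.7% and 5.26% of all counts in the vehicle livers MS-4, MS-19, MS-20 and MS-21 and 0.64% to 1.16% in the low-dose livers (log2 fold change −2.71, SE 0.471, edgeR adjusted p = 0.00248). The interval on chromosome 1 from 11907094 to 11915036 took 0.898%, 3.63%, 1.03% and 5.43% in the same vehicle livers and 0.206% to 0.783% in the low-dose livers.

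Other intervals also separated the groups. On chromosome 3, the interval from 92670979 to 92690978 was at 11.2, 19.5, 16.2 and 13.9 CPM in the vehicle livers and 0.347 to 1.08 CPM in the low-dose livers (log2 fold change −5.06, SE 0.301, edgeR adjusted p = 2.76e-05). A second interval of that chromosome, from 145697131 to 145717130, was at 0.225, 0.459, 0.367 and 1.62 CPM in the same vehicle livers, highest in MS-21, and at 14.9 to 28.6 CPM after the low dose (log2 fold change 4.25, SE 0.482, edgeR adjusted p = 0.00032). Levels of intervals are CPM over all targets, without scaling factors, and whether an interval holds a gene is not given here.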
